A study of Mus musculus with 41 samples.

Results

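The genes described here are 10 transcription factor genes of the naive pluripotency network, namely Pou5f1, Esrrb, Nr5a2, Klf2, Klf4, Klf5, Tfcp2l1, Zfp42, Tbx3 and Prdm14. They were chosen by name, out of 21755 protein-coding genes annotated on chromosomes 1 to 19 and X, and all 10 were found in the annotation. For each gene, peaks were collected that touched a promoter (2000 bp on either side of any annotated transcription start site, TSS) or the gene region (the gene body with 20 kb on either side). A gene was called in a list when at least 1 bp of a peak lay in a promoter. Each peak was described by its width and by the rank of its total signal in its own list, given as a percent of the list, so that a small percent stands for a large signal.

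The study profiled 4 histone post-translational modifications (hPTMs) by CUT&Tag, in which an antibody leads a transposase to tagged chromatin, in 41 samples of 8 mouse cell types. H3K18la, the lactylation of lysine 18 of histone H3, was profiled in all 8 cell types, H3K27me3 in 7, H3K27ac in 5 and H3K4me3 in 4. The samples fall into 24 groups of cell type and mark, 17 with 2 samples and 7 with 1, and each group has 1 peak list called on its pooled samples. No value below therefore has a replicate error, and with 2 stem cell types against 6 others an exact two-sided permutation test cannot go below p = 0.0714, so the values are given without a test.

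The treatment label of all samples is control. mESC-ser and mESC-2i are mouse embryonic stem cells of a single line, E14, grown with LIF in serum or in N2B27 medium with inhibitors of MEK and GSK3 (2i). The differentiated cell types are primary myoblasts (MB), myotubes made from such cells (MT), whole gastrocnemius (GAS), a calf muscle, macrophages grown out of bone marrow (BMDM), macrophages sorted from muscle after ischemia by CD45, CD11b, F4/80 and CD64 (PIM), and white fat adipocytes (ADIPO), whose nuclei came from epididymal fat of AdipoCre-NuTRAP mice, in which an adipocyte Cre driver labels the nuclei. Stem cells entered the assay as whole cells and the others as nuclei, so that cell identity and this step cannot be told apart in any comparison of stem with differentiated cells. A peak in a bulk sample also does not tell how many of its cells carried the mark.

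Naive pluripotency is the state of the preimplantation epiblast, which embryonic stem cells hold in culture through a network of factors that switch each other on. LIF, through STAT3, and WNT signalling, through release of the repressor TCF7L1, feed this network, while FGF signalling through MEK and ERK pushes cells out of it. In 2i medium the network is held more evenly than in serum, where cells fluctuate between a naive and a more advanced state. H3K4me3 marks active promoters, H3K27ac active promoters and enhancers, and H3K27me3 is the mark of Polycomb repression. A promoter with H3K4me3 and H3K27me3 together is called bivalent.

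The stem cell lists were those of stem cells by their markers. H3K18la was called at the promoters of 5 of 5 stem cell marker genes (Lin28a, Sall4, Dppa4, Tdgf1, L1td1) in both media, at 0 of 5 muscle markers in both, and at 0 or 1 of 5 macrophage or adipocyte markers. In the 6 differentiated lists it was called at 0 of 5 stem cell markers, except in GAS with 2 of 5 (Lin28a and Tdgf1). The H3K18la lists held 13550 to 36813 peaks on the chromosomes used and covered 22.55 to 136.8 Mb. The mESC-2i list was wider than the mESC-ser list for H3K18la (128.1 against 82.4 Mb) and for H3K27me3 (145 against 86.59 Mb), although the numbers of peaks were close. The lists themselves give no read numbers and sequencing depth was not analysed here, although widths and covered shares move with it.

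H3K18la was present at the promoters of all 10 genes in stem cells of both media, while in the other cell types it was called there at a share near that of all genes. The promoter was called for 10 of 10 genes in mESC-ser, where 33.4% of all protein-coding genes were called, and for 10 of 10 in mESC-2i, where 37.8% were called. Over all genes, 28.6% were called in both lists. In the 6 differentiated cell types 16 of 60 combinations of gene and cell type were called (26.7%, against 30.5% over all genes). By list these were 2 of 10 genes in MB (background 11.1%), 4 of 10 in MT (34.8%), 4 of 10 in GAS (36.1%), 2 of 10 in BMDM (18.5%), 2 of 10 in PIM (37.8%) and 2 of 10 in ADIPO (44.7%). With only the 5000 peaks of largest signal in each list, 4 of 60 were called (6.67%, against 6.79% over all genes), and in stem cells 19 of 20 (95%, against 13.1%).

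The 16 calls in differentiated cells belonged to 5 of the genes. Klf2, which maintains quiescence in blood and endothelial cells besides its role in stem cells, was called in 6 of 6 cell types, and was the only 1 of the 10 called in all 8 cell types (2.69% of all genes were). Klf4, a regulator of epithelial and myeloid differentiation and a reprogramming factor, was called in 5 of 6, the exception being ADIPO. Tbx3, a T-box factor of limb and mammary development, was called in MT, GAS and ADIPO, Klf5 in MT, and Nr5a2 in GAS. The Nr5a2 peak in GAS was 1768 bp wide and ranked at 97.1% of its list, near the bottom. The other 5 genes, Pou5f1, Esrrb, Tfcp2l1, Zfp42 and Prdm14, were called in both stem cell lists and in 0 of 6 differentiated lists, a pattern found at 3.5% of all genes.

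**Figure D1:**
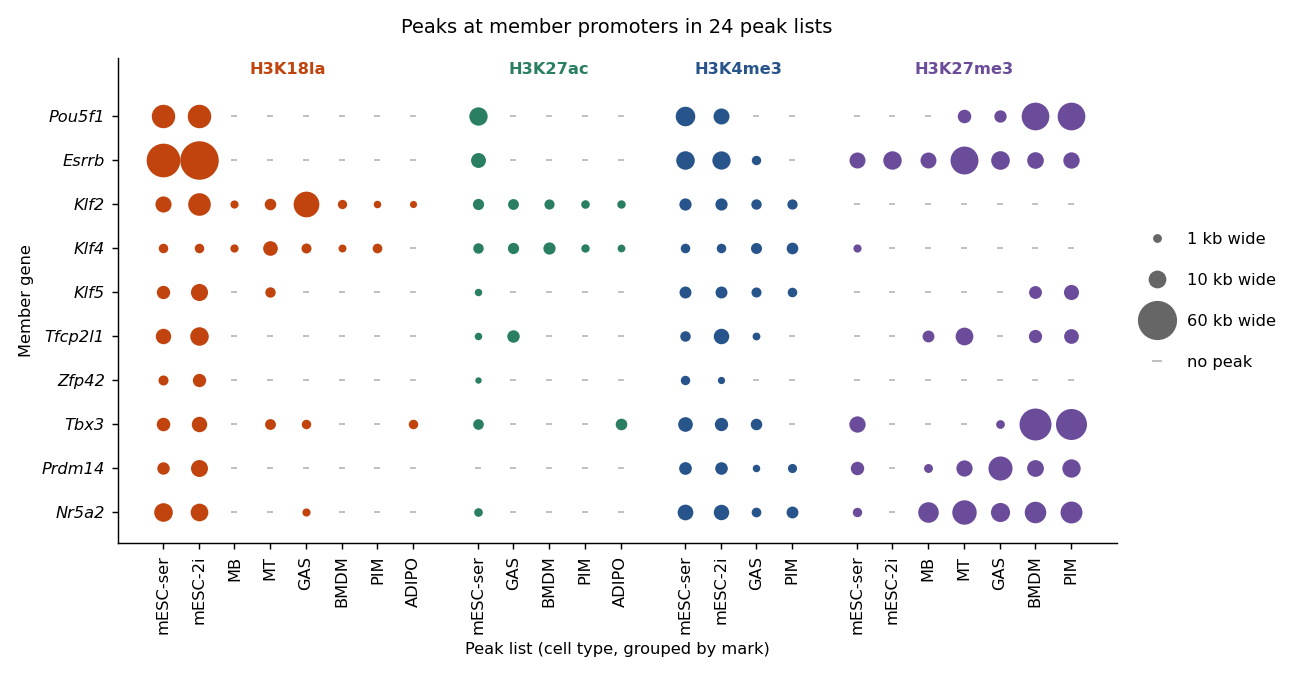
Promoter calls of the 10 genes (vertical axis) in the 24 peak lists (horizontal axis, grouped and coloured by mark). The area of a point grows with the width of the widest promoter peak in kb, and a grey dash marks a list without a promoter peak. In H3K18la all 10 genes have points in mESC-ser and mESC-2i, and over the other 6 columns the rows of Klf2 and Klf4 are the fullest.

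In stem cells most of these genes also had promoter peaks of H3K4me3 and, in mESC-ser, of H3K27ac. H3K4me3 was called at 10 of 10 genes in mESC-ser (48.8% of all genes) and at 10 of 10 in mESC-2i (61.8%). It was also called at 8 of 10 in GAS (64.2%) and 5 of 10 in PIM (59.4%), or 13 of 20 combinations, so H3K4me3 was as common at these promoters in the differentiated lists (65%) as over all genes (61.8%). Pou5f1 and Zfp42 had it in neither of these 2 lists. H3K27ac was called at 9 of 10 genes in mESC-ser (40.2%), the exception being Prdm14 (at Tbx3 it covered the last TSS alone), and at 10 of 40 combinations in differentiated cells (25%, against 44% over all genes). Of those 10, 8 were Klf2 and Klf4 in 4 of 4 cell types each, and the others were Tfcp2l1 in GAS and Tbx3 in ADIPO. By list they were 3 of 10 in GAS (47%), 2 of 10 in BMDM (34%), 2 of 10 in PIM (48.8%) and 3 of 10 in ADIPO (46.1%). In mESC-ser, 9 of 10 genes carried H3K18la, H3K4me3 and H3K27ac together, against 23.9% of all genes.

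The promoter sequences of 4 of the genes show how differently their promoters are built. RefSeq promoter sequences (build GRCm38.p6, from 250 bases before to 50 after a start) were at hand for 7 of the 10 genes, the others being Klf5, Tbx3 and Prdm14. Pou5f1 and Zfp42 are shown as genes called for H3K18la in stem cells alone, and Klf2 and Klf4 as those called in 6 and 5 of the 6 differentiated cell types. The 250 bases before the start are printed 5′ to 3′ on the gene's strand, with each CpG in capitals.
Pou5f1 chr17:35505782-35506031 (plus strand): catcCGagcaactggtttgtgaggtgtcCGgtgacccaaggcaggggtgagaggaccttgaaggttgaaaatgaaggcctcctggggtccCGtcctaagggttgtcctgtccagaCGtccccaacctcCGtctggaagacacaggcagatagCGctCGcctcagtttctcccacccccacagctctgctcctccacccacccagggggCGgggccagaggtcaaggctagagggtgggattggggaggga
Zfp42 chr8:43307010-43307259 (minus strand): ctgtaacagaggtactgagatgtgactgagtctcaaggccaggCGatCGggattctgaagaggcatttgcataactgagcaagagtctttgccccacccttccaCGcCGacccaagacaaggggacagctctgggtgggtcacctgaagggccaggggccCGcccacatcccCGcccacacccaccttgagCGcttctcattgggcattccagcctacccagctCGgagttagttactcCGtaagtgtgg
Klf2 chr8:72318812-72319061 (plus strand): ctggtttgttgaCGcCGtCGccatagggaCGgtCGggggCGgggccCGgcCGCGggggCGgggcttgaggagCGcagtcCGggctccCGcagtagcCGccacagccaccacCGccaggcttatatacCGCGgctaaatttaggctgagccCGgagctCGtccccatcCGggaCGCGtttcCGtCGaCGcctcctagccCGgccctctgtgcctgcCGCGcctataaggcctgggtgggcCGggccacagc
Klf4 chr4:55532476-55532725 (minus strand): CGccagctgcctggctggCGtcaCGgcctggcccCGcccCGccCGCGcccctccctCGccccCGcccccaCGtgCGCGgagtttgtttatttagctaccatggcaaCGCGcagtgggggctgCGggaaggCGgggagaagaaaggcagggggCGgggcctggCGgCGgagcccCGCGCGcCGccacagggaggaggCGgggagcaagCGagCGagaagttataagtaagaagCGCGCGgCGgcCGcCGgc
Within the full 300 bases, Klf4 held 40 CpGs and Klf2 held 32, more than 96.1% and 90.4% of the 32619 promoters in the table, whose median was 7. Tfcp2l1 held 21, and Pou5f1 (at its first start) and Zfp42 held 11 each. Both promoters of Esrrb held 7, and those of Nr5a2 held 2 and 7. Calls and counts can come from different starts of a gene. The Nr5a2 peak in GAS lay 12.5 to 14.3 kb past the first TSS, away from both counted Nr5a2 promoters. Both counted Esrrb promoters had their starts under no stem cell H3K18la peak. The CpG counts were therefore not read against the calls.

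Short motifs of 4 factors or families were searched on both strands, in plain letters, in the 10 promoters of these 7 genes. The OCT4 octamer ATGCAAAT was found in 1 of 10, against 1.75% of all promoters, and the KLF motif CCACACCC in 1 of 10, against 3.57%. Both matches were in the Zfp42 promoter, at bases 65 to 72 and 176 to 183 of the printed sequence. The motif TCAAGGTCA, bound by ESRRB and NR5A2, was found in 0 of 10 (0.426% of all), and the STAT motif TTCCNGGAA in 0 of 10 (1.16% of all). A match of letters is not a bound site, and no match says only that these letters are not in this window.

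The H3K18la peaks at these promoters were wide and stood high in their lists. The median width of the widest promoter peak was 8106 bp in mESC-ser and 12169.5 bp in mESC-2i, against 3929 bp and 5779.5 bp over all genes called. The median rank was at 11.6% of the list in mESC-ser and 7.7% in mESC-2i, against 39.6% and 39% over all genes called. Peaks ranged from 2847 bp (Klf4, in both media) to 48609 bp in mESC-ser and 63810 bp in mESC-2i (Esrrb). H3K4me3 peaks at the same promoters had median widths of 5675.5 bp in mESC-ser and 6207.5 bp in mESC-2i, against 3349 and 2534 bp over all genes called, with median ranks of 7.77% and 1.91%.

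Pou5f1 (chr17:35506018-35510772, plus strand) encodes OCT4, the POU-domain factor at the centre of the pluripotency network. Its promoter lay in an H3K18la peak of 22900 bp in mESC-ser and 23043 bp in mESC-2i, at 0.887% and 1.43% of the lists. The H3K27ac peak in mESC-ser was 13594 bp wide and ranked 15 of 15664, and the H3K4me3 peak was 15563 bp wide and ranked 20 of 11002. Both were the highest ranks of the 10 genes in these lists. The H3K18la peaks and the mESC-ser H3K4me3 peak also took in the promoters of its neighbours Tcf19 and Cchcr1, and so part of their signal cannot be assigned to Pou5f1. In the 6 differentiated H3K18la lists the share of the Pou5f1 region under peaks was 0% throughout.

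Esrrb (chr12:86361117-86521628, plus strand) encodes an orphan nuclear receptor that is a direct target of the TCF7L1 repressor. It had the widest H3K18la promoter peak of the 10 in both media, at rank 14 of 19057 in mESC-ser and 17 of 19908 in mESC-2i. The peak did not lie at the start of the gene. The annotation gives 5 TSSs, and the first, together with those 60.5 and 60.8 kb further on, lay under no H3K18la peak in either medium. The TSSs at 109 and 143 kb lay inside the wide peak in both. H3K4me3 covered the TSSs at 60.5, 60.8, 109 and 143 kb, while H3K27me3 covered the first TSS and those at 60.5 and 60.8 kb in both media. The H3K27me3 and the H3K18la thus sat at different TSSs of the same gene, and the pair at 60.5 and 60.8 kb carried H3K4me3 with H3K27me3.

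Nr5a2 (chr1:136842571-136960448, minus strand) encodes the orphan nuclear receptor LRH1, which can replace OCT4 in reprogramming. Its H3K18la peak was 14108 bp wide in mESC-ser (4.51% of the list) and 12598 bp in mESC-2i (7.51%). As at Esrrb it lay inside the gene. The first TSSs had no peak of any of the 4 marks in stem cells, and those 6.82, 10.9 and 11.3 kb further on lay under H3K18la and H3K4me3 in both media. H3K27me3 covered the TSSs at 10.9 and 11.3 kb in mESC-ser and none in mESC-2i.

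**Figure D2:**
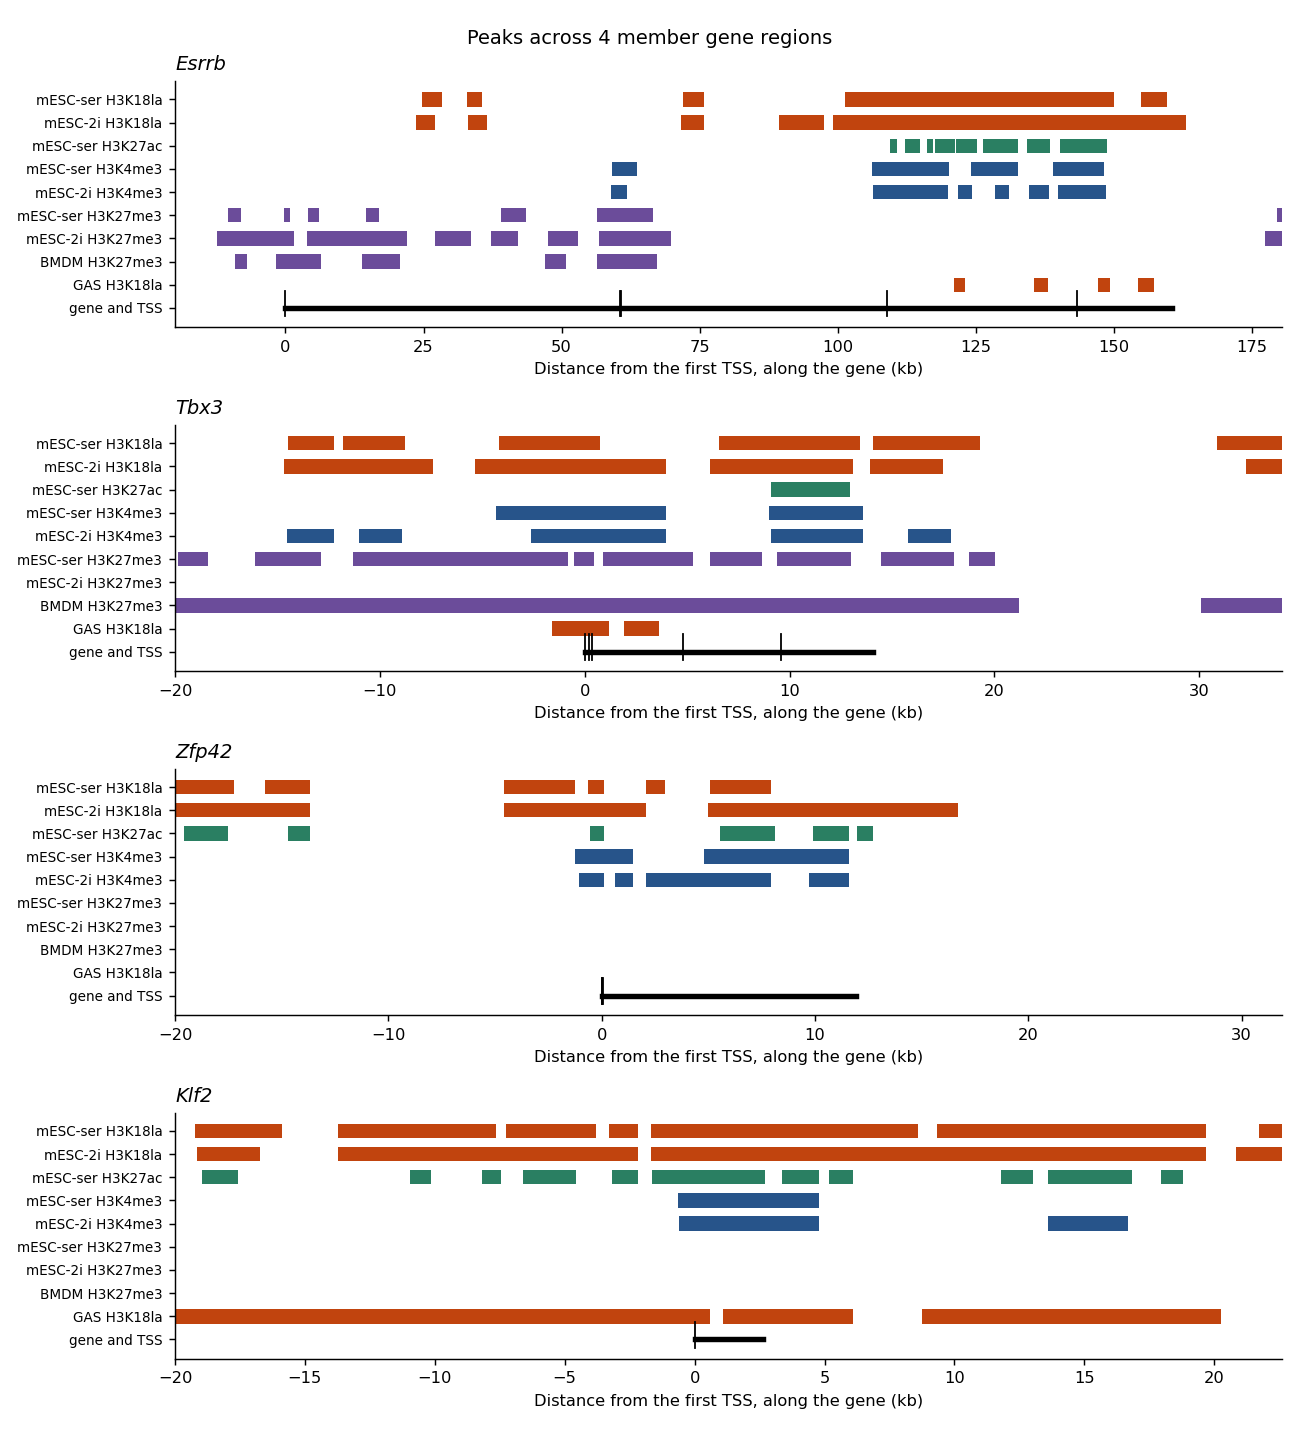
Peaks across the gene regions of Esrrb, Tbx3, Zfp42 and Klf2, with distance from the first TSS in kb along the gene on the horizontal axis and a peak list in each line. Bars are peaks coloured by mark, the black line is the gene body and short vertical lines are TSSs. In Esrrb the stem cell H3K27me3 bars cover the first 3 TSSs and also stretches away from TSSs, and the widest stem cell H3K18la bars cover the last 2 TSSs, and in Tbx3 the mESC-ser H3K27me3 bars have no counterpart in mESC-2i.

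The 3 Krüppel-like factor genes encode zinc finger proteins with overlapping binding sites that can stand in for each other in stem cells. Klf2 (chr8:72319033-72321656, plus strand) had an H3K18la promoter peak of 10261 bp in mESC-ser (1.97% of the list) and 21338 bp in mESC-2i (0.417%). In differentiated cells its promoter peak was 1799 bp wide in MB, 4709 bp in MT, 27880 bp in GAS, 2652 bp in BMDM, 1342 bp in PIM and 1079 bp in ADIPO. The GAS peak was thus wider than those of stem cells, at 0.345% of its list, but it had its maximum 23.3 kb before the TSS and took in the promoter of Gm10282, which the stem cell peaks did not. The MB and ADIPO peaks stood low, at 95.7% and 93.4%. Klf5 (chr14:99298691-99315036, plus strand) had 2 promoter peaks in mESC-ser, 1 of 4522 bp that held both TSSs (21.1%) and 1 of 6667 bp that held none (17.8%), and in mESC-2i a single peak of 11741 bp with both (13.4%).

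Klf4 (chr4:55527143-55532466, minus strand) was an exception among the 10. Its H3K18la promoter peak was the narrowest of them in both media, 2847 bp, at 25.7% of the list in mESC-ser and 36.2% in mESC-2i. Its promoter peaks in 5 differentiated lists were 1845 bp wide in MB, 8264 bp in MT, 3235 bp in GAS, 1621 bp in BMDM and 2989 bp in PIM. The peaks in MT, GAS and PIM were wider than those in stem cells, and ranked at 7.78%, 31.3% and 20.9%. The first TSS of Klf4 lay under the H3K27ac peak in mESC-ser but in a gap between peaks of both H3K18la and H3K4me3 in both media, and the peak of 2847 bp had the same borders in all 4 of these lists.

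Tfcp2l1 (chr1:118627945-118685168, plus strand), a CP2-family factor gene and a target of STAT3, had an H3K18la promoter peak of 9317 bp in mESC-ser (10.9%) and 13906 bp in mESC-2i (4.58%). Its H3K4me3 peak was 3674 bp wide at 69% of the mESC-ser list and 9365 bp wide at 1.81% of the mESC-2i list, and these lists held 11002 and 19362 peaks. Zfp42 (chr8:43295063-43306980, minus strand), known as Rex1 and used as a reporter of the naive state, had 2 H3K18la promoter peaks in mESC-ser, 1 of 760 bp that held its 3 TSSs (22.4%) and 1 of 3294 bp that held none (12.8%). In mESC-2i a single peak of 6627 bp held all 3 (7.9%), so the widest peaks of the media are unlike in what they hold. Zfp42 was called in 5 of the 24 lists, the fewest of the 10, and all 5 were stem cell lists. On chromosome 8, which holds Klf2 and Zfp42, the number of peaks per Mb was 1.2 to 1.63 times that of the genome in the 7 stem cell lists and 0.975 to 1.17 times in the 17 others, and its part in these values was not tested.

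Tbx3 (chr5:119670669-119684724, plus strand), whose product is linked to the PI3K branch of LIF signalling in stem cells, had 2 H3K18la promoter peaks in each medium. The widest was 6895 bp around its last TSS in mESC-ser (12.3%) and 9351 bp around its first in mESC-2i (14.8%). Prdm14 (chr1:13113457-13127163, minus strand), which represses FGF receptor and DNA methyltransferase genes, had peaks of 5616 bp (14.8%) and 11475 bp (7.97%). Prdm14 alone among the 10 lacked promoter H3K27ac in mESC-ser, although 6.25% of its region lay under H3K27ac peaks.

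Across whole gene regions H3K18la covered these genes widely in stem cells. The median share of the region under H3K18la peaks was 35.5% in mESC-ser and 50.6% in mESC-2i, against 2.01% and 4.22% over all protein-coding genes. All 10 regions held a peak in both lists, as did 54% of all gene regions in mESC-ser and 58.1% in mESC-2i. Klf2 had the highest share in mESC-ser (83.4%), followed by Pou5f1 (70.2%), Klf5 (68.5%), Tbx3 (47.2%), Prdm14 (39.3%), Esrrb (31.6%), Tfcp2l1 (26%), Zfp42 (24.4%), Klf4 (9.11%) and Nr5a2 (8.94%). Without replicates, which neighbours in this order differ beyond their error cannot be said. The Klf2 share was reached by 0.156% of all genes, the Pou5f1 share by 0.542% and the Klf5 share by 0.644%, while the shares of Klf4 and Nr5a2 were reached by 30% and 30.3%.

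In 8 of 10 genes the shares of both stem cell types were above those of all 6 differentiated cell types, as at 21.8% of all genes. Pou5f1 and Zfp42 had 0% in all 6 differentiated lists, and Klf5, Tfcp2l1, Prdm14 and Nr5a2 had a differentiated median of 0% with highest shares of 13.5% (MT), 9.16% (GAS), 2.15% (MB) and 1.12% (GAS). Esrrb reached 4.67% in GAS and Tbx3 8.62% in ADIPO. The 2 genes that overlapped were Klf2 and Klf4. Klf2 had 4.22% in MB, 38.9% in MT, 87.2% in GAS, 13.8% in BMDM, 18% in PIM and 11.9% in ADIPO, so that GAS stood level with mESC-2i (87.1%). Klf4 had 11.2% in MB, 44.7% in MT, 25.4% in GAS, 5.68% in BMDM, 15% in PIM and 0% in ADIPO, so that MT stood above both stem cell types.

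**Figure D3:**
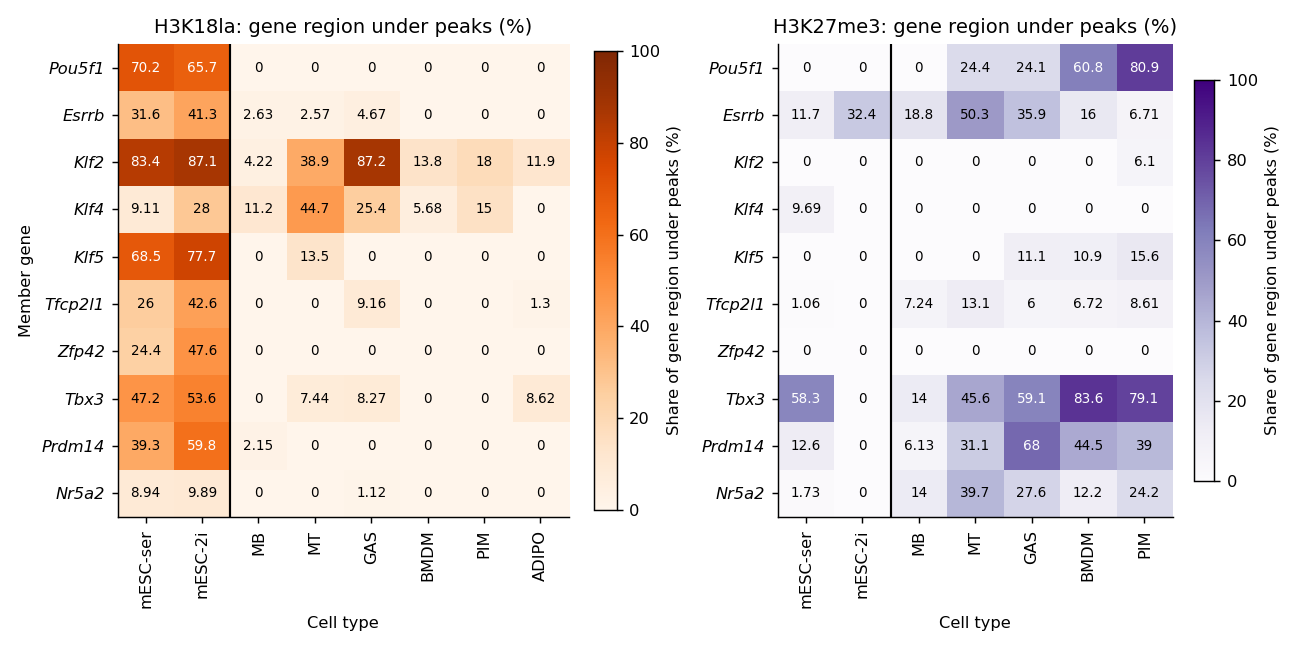
Share of each gene region under H3K18la peaks (left, 8 cell types) and under H3K27me3 peaks (right, 7 cell types), printed in each cell in percent and shaded from 0 to 100%. A vertical line divides stem cells from differentiated cells. For H3K18la the rows of Pou5f1 and Zfp42 are at 0 right of the line, and for H3K27me3 the rows of Tbx3, Prdm14 and Nr5a2 are at 0 in mESC-2i and above 0 in all 5 differentiated cell types.

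H3K27me3 differed between the media at these promoters. It was called at 5 of 10 genes in mESC-ser (Esrrb, Klf4, Tbx3, Prdm14 and Nr5a2), where 27% of all genes were called, and at 1 of 10 in mESC-2i (Esrrb), where 22.5% were. With the 5000 peaks of largest signal these were 3 of 10 (15.3% of all genes) and 1 of 10 (10.9%). Klf4, Tbx3, Prdm14 and Nr5a2 were called in mESC-ser and not in mESC-2i, a pattern of 8.57% of all genes. The opposite pattern was found at 0 of the 10 and at 4.05% of all genes. The mESC-ser peaks behind these calls were unlike in signal. That of Klf4 was 1782 bp wide at 63.3% of the list and that of Nr5a2 2738 bp at 33.7%. The widest of Tbx3 stood at 6.73% and that of Prdm14 at 11.4%. Since H3K4me3 and H3K18la were called at all 10 genes in mESC-ser, the 5 genes with H3K27me3 there necessarily had all 3 marks. This combination was found at 6.68% of all genes. At Esrrb the H3K27me3 and the H3K18la lay at different TSSs.

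The difference was widest at Tbx3. In mESC-ser, 9 H3K27me3 peaks covered 58.3% of the Tbx3 region and 5 of them touched its promoters, the widest being 10503 bp at 6.73% of the list. In mESC-2i there was no peak in the region, and of all protein-coding genes 0.0735% had a lower difference. Prdm14 went from 12.6% to 0%, Klf4 from 9.69% to 0%, Nr5a2 from 1.73% to 0% and Tfcp2l1, without a promoter call, from 1.06% to 0%. Esrrb went the other way, from 11.7% to 32.4%, a difference of 20.7 percentage points that was exceeded by 5.66% of all genes. Pou5f1, Klf2, Klf5 and Zfp42 had 0% in both media. The mESC-2i list was the larger of the 2 and covered more bases.

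H3K18la and H3K27me3 peaks met at Tbx3 in mESC-ser. Of its 5 TSSs, 4 lay under an H3K18la peak and all 5 under an H3K27me3 peak. The promoter peak of H3K18la around the first TSS was 4961 bp wide in mESC-ser and 9351 bp in mESC-2i, and 47.2% and 53.6% of the region lay under H3K18la. The Prdm14 TSS lay under H3K18la and H3K4me3 in both media and under H3K27me3 in mESC-ser alone, with an H3K27me3 peak of 6766 bp. Pooled cells cannot show whether marks that overlap were on the same chromosomes or in different cells of the culture.

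In differentiated cells H3K27me3 was called at 28 of 50 combinations (56%, against 20.5% over all genes). It was called at 4 of 10 genes in MB (12.5% of all genes), 5 of 10 in MT (20.1%), 5 of 10 in GAS (23.9%), 7 of 10 in BMDM (19.2%) and 7 of 10 in PIM (26.4%). The 7 genes of the macrophage lists were the same in both, Pou5f1, Esrrb, Klf5, Tfcp2l1, Tbx3, Prdm14 and Nr5a2, and 17.7% of all genes were called in both. These 7 were also the genes called in at least 1 of the 5 lists, as were 39.3% of all genes. Esrrb, Prdm14 and Nr5a2 were called in 5 of 5, Pou5f1 and Tfcp2l1 in 4 of 5, Tbx3 in 3 and Klf5 in 2. Klf2, Klf4 and Zfp42 were called in 0 of 5. For Klf2 and Klf4 these were lists of cells with H3K18la at the promoter, but Zfp42 had a peak of neither mark at its promoter in any differentiated list.

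At Tbx3 and Pou5f1 the widest H3K27me3 promoter peaks were those of the macrophages. At Tbx3 the peak was 43593 bp wide in BMDM (0.892% of the list) and 40993 bp in PIM (0.582%), and it contained all 5 TSSs. At Pou5f1 it was 32507 bp in BMDM and 32456 bp in PIM, at 2.06% and 2.04%, with all 6 TSSs inside. The muscle lists had narrower peaks at Pou5f1, 6892 bp in MT and 5525 bp in GAS, and none in MB. The share of the Pou5f1 region under H3K27me3 was 0% in MB, 24.4% in MT, 24.1% in GAS, 60.8% in BMDM and 80.9% in PIM. Prdm14 had its highest share in GAS (68%, with a promoter peak of 24274 bp at 0.368% of the list) and Nr5a2 in MT (39.7%).

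Tbx3 also carried both H3K18la and H3K27me3 outside stem cells. In MT the promoter had an H3K18la peak of 4023 bp, and 45.6% of the region lay under H3K27me3 without a promoter call. In GAS an H3K18la peak of 2777 bp stood at the promoter, 59.1% of the region lay under H3K27me3, and the promoter call rested on a peak of 2193 bp at 79% of the list, away from the first TSS. In BMDM and PIM, with 83.6% and 79.1% under H3K27me3, no H3K18la was called. The share under H3K27me3 was below that of all 5 differentiated cell types in both stem cell types for 2 of 10 genes, Tfcp2l1 and Nr5a2 (4.06% of all genes), and above it for 0 of 10 (8.03% of all genes).

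Between the media, H3K18la covered more of most gene regions in mESC-2i, where the list also covered more bases. The share was higher in mESC-2i for 9 of 10 genes, with a median difference of 9.41 percentage points. Over the 13785 genes with a peak in either list the share was higher for 72.4%, with a median of 3.5 points. The differences were 23.1 points for Zfp42, 20.5 for Prdm14, 18.9 for Klf4, 16.6 for Tfcp2l1, 9.64 for Esrrb, 9.18 for Klf5, 6.33 for Tbx3, 3.74 for Klf2 and 0.958 for Nr5a2, and Pou5f1 was lower by a difference of -4.48 points. Those of Zfp42, Prdm14 and Klf4 were exceeded by 3.64%, 4.79% and 5.66% of all genes with the full lists. When the weakest mESC-2i peaks were dropped until that list covered no more than the mESC-ser list, the median difference was 0.824 points and 5 of 10 genes were higher in mESC-2i. Zfp42 then kept its 23.1 points, Prdm14 had 8.02 and Tfcp2l1 2.6, while Klf4 turned to -2.83, Klf2 to -6.21, Klf5 to -9.84 and Nr5a2 to -0.956. The trimmed differences were not computed over all genes. Whether those of the 10 genes lie above or below that background cannot be said.

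H3K4me3 covered more of the region in mESC-2i for 6 of 10 genes, with a median difference of 0.877 points, against 51.4% of the genes with a peak in either list. The mESC-2i list, the larger again, gave 2 of 10 and a median of -0.686 points when trimmed in the same way, again without a value over all genes. Tbx3 had 23.8% in mESC-ser and 32.5% in mESC-2i, and Pou5f1 34.8% and 28.5%. The H3K27me3 differences at Tbx3, Prdm14, Klf4 and Esrrb had the same sign under this trimming and with gene regions of 10 or 50 kb on either side.

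**Figure D4:**
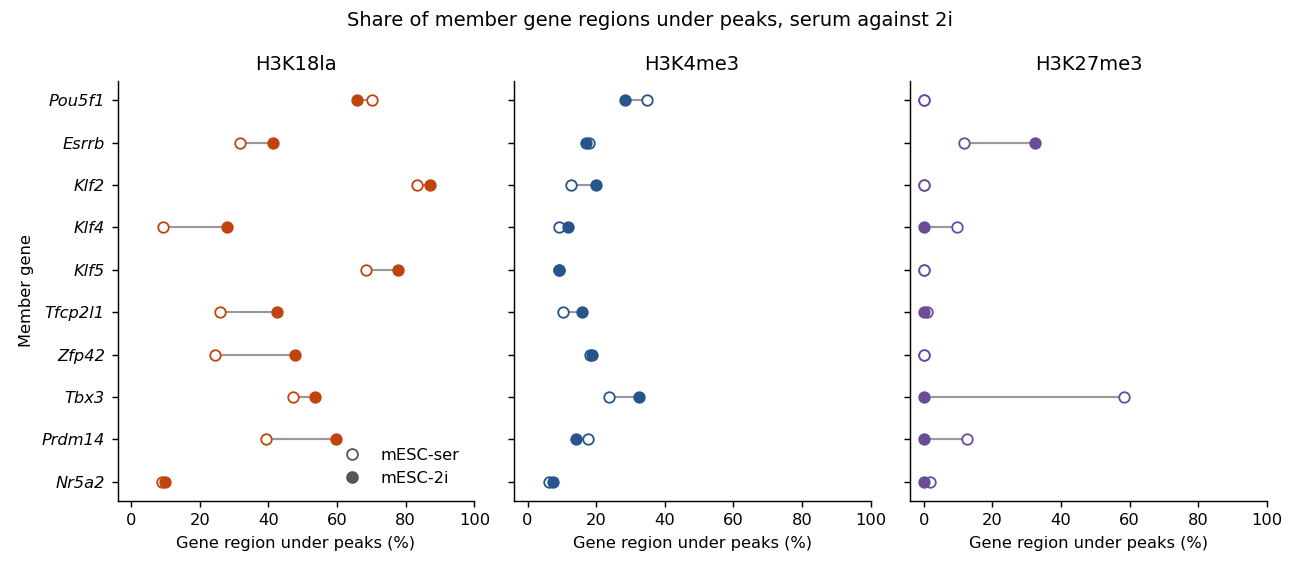
Share of each gene region under peaks (horizontal axis, percent) in mESC-ser (open points) and mESC-2i (filled points) for 3 marks, with a grey line joining the media. Points of a gene at 0 in both media lie on each other. The longest line is that of H3K27me3 at Tbx3, from 58.3% to 0%, and most H3K18la lines run to the right.

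Away from promoters, H3K18la peaks stood in the regions of these genes in both media. Distal peaks, those touching no promoter of any annotated gene, numbered 26 at 8 of the genes in mESC-ser and 25 at all 10 in mESC-2i. In mESC-ser, 17 were intergenic, 3 intronic and 6 touched an exon, and in mESC-2i 14, 4 and 7. Of the 26, 24 overlapped an H3K18la peak of mESC-2i (71.4% of all distal peaks of the list did), and of the 25, 17 overlapped a peak of mESC-ser (52.3%). H3K27ac of mESC-ser overlapped 11 of the 26 (32.4% of all) and 8 of the 25 (22.3%). No H3K18la peak of any differentiated list overlapped 18 of the 26 (54.3% of all) and 19 of the 25 (58.4%).

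Among the distal peaks within the top 5% of a list were those of Klf5, Prdm14, Zfp42 and Pou5f1. At Klf5 a peak of 21693 bp in mESC-ser (0.672%) and 27267 bp in mESC-2i (1.34%) lay past the end of the gene, with its maximum 21.8 and 26.7 kb past the nearest TSS, and overlapped H3K27ac of mESC-ser and H3K18la of MT. At Prdm14 a peak of 22721 bp in mESC-2i (1.32%) ran out of the gene region, with its maximum 48.7 kb past the TSS, and overlapped H3K27ac of mESC-ser and no differentiated H3K18la.

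At Zfp42 the peak with its maximum 24.9 kb before the TSS was 8609 bp wide in mESC-ser (3.87%) and 12235 bp in mESC-2i (3.63%), with H3K27ac and no differentiated H3K18la. At Pou5f1 a peak of 9338 bp in mESC-ser (4.22%) and 8763 bp in mESC-2i (11.5%) had its maximum 15.5 kb before the TSS, with H3K27ac. It overlapped H3K18la of ADIPO only at its far end, more than 20 kb before the gene and so outside the gene region. The largest distal peak of Tbx3 lay 30.7 kb from a TSS, at 10.5% of the list in mESC-ser and 12.6% in mESC-2i, and that of Esrrb stood at 40.1% and 21.2%. Tfcp2l1 had its largest at 68.3% and 57.3%. At Esrrb and at Tfcp2l1 the largest peaks of the media were different peaks that did not overlap. Klf4 and Nr5a2 had distal peaks in mESC-2i alone, at 56.9% and 65.7% for the largest.

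The 300 bases around the maximum of these 4 peaks are printed as examples of distal H3K18la of large signal, in the list where each stood highest. They are in build GRCm38 on the plus strand, with matches to the motifs above in capitals.
Pou5f1 chr17:35490406-35490705 (mESC-ser): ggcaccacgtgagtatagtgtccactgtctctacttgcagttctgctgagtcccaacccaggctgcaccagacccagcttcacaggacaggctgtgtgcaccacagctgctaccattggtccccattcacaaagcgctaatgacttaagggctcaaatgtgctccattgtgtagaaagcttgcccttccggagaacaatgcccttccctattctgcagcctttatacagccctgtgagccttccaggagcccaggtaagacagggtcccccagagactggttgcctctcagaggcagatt
Klf5 chr14:99320764-99321063 (mESC-ser): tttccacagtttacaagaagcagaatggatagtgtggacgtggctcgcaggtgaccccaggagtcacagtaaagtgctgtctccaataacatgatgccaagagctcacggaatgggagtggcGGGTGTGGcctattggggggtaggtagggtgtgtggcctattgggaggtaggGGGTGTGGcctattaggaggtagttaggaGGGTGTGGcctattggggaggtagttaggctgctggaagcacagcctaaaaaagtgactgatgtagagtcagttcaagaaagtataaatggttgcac
Zfp42 chr8:43331717-43332016 (mESC-2i): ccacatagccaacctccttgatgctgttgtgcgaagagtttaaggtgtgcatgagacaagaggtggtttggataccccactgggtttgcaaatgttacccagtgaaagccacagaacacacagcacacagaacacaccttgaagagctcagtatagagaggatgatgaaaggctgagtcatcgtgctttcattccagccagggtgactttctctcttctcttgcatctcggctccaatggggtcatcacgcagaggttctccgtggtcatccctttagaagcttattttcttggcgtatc
Prdm14 chr1:13078298-13078597 (mESC-2i): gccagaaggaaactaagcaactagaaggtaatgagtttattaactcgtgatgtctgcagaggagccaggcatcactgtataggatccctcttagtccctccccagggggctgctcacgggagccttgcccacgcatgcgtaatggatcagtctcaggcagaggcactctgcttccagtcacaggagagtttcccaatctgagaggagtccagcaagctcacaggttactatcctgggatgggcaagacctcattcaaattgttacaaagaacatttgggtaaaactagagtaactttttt
Of the 4 windows, that of Klf5 held matches, all to the KLF motif on the minus strand, at bases 123 to 130, 175 to 182 and 204 to 211, in a stretch where the same unit is repeated. Over all distal peaks of the 10 genes, windows with the KLF motif were 5 of 26 in mESC-ser (9.52% of all distal windows) and 4 of 25 in mESC-2i (10.7%). The ESRRB and NR5A2 motif was in 0 of 26 (2.91%) and 2 of 25 (2.97%), the OCT4 octamer in 0 of 26 (2.81%) and 0 of 25 (3.65%), and the STAT motif in 0 of 26 (1.33%) and 1 of 25 (1.53%). The window sits on the maximum of a histone mark, which need not be where a factor binds.

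The genes most like each member were those with the most identical promoter calls over the 24 lists. Pou5f1 shared all 24 calls with Aplp1, Eras, Ogdhl and Ooep, Esrrb with Cacna2d2 and Prom1, and Prdm14 with Dnajc6, Foxd3 and Sox21. Klf4 shared all 24 with Tubb6 alone, Klf5 with Nectin3, Tfcp2l1 with Epb41l4a and Nr5a2 with Ntn1. Zfp42 shared them with 21 genes, the first in alphabetical order being 1700001P01Rik, 1700061G19Rik, 2410141K09Rik, Acsbg2 and Dnd1, and Klf2 with 342. Tbx3 had no such gene and shared 23 calls with Ephb3, Nid1, Npr3 and Stc2. Among the members, Klf2 and Klf4, and Prdm14 and Nr5a2, shared 22 of 24 calls.

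Genes of the signalling pathways that feed the network were read in the same way. H3K18la was called in both media at the promoters of 7 of 9 genes of LIF and STAT3 signalling and 13 of 14 genes of FGF and ERK signalling, as at 28.6% of all genes. In the differentiated lists the LIF and STAT3 genes called were 2 of 9 in MB (11.1% of all genes), 3 of 9 in BMDM (18.5%) and 7 of 9 in ADIPO (44.7%). They were 9 of 9 in each of MT (34.8%), GAS (36.1%) and PIM (37.8%). The FGF and ERK genes called were 4 of 14 in MB (11.1% of all genes), 5 in BMDM (18.5%) and 6 in PIM (37.8%). They were 9 in MT (34.8%), 10 in ADIPO (44.7%) and 11 in GAS (36.1%). In WNT and GSK3 signalling H3K18la was called at 6 of 9 genes in mESC-ser (33.4% of all genes) and 8 of 9 in mESC-2i (37.8%). The difference was Gsk3a and Gsk3b, which encode the kinase that 2i medium inhibits. Gsk3a was also called in 5 of 6 differentiated lists and Gsk3b in 6 of 6, and the cause of the difference was not tested. The WNT and GSK3 genes called were 1 of 9 in MB, 2 in BMDM, 4 in PIM, 4 in ADIPO, 5 in GAS and 6 in MT, beside the shares of all genes just given. H3K27me3 was called at 3 of 9 LIF and STAT3 genes in mESC-ser (27% of all genes) and 0 of 9 in mESC-2i (22.5%), and at 3 of 9 WNT and GSK3 genes in mESC-ser and 0 of 9 in mESC-2i. Of FGF and ERK genes 3 of 14 were called in each, beside 27% of all genes in mESC-ser and 22.5% in mESC-2i. Fgfr2, an FGF receptor, and Etv4, an ETS factor, were called in both media, Fgfr1 in mESC-ser alone and Spry4 in mESC-2i alone. The 6 that were called in mESC-ser alone in the first 2 lists, named after their values were seen, were Lif, Jak1 and Jak2, and the WNT pathway genes Axin2, Tcf7 and Lef1.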

How the data were processed

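Peak lists of CUT&Tag libraries were used as the authors deposited them. Per the labels and the study's methods, reads were trimmed (Trim Galore 0.6.6), aligned to mm10 (Bowtie2 2.4.4, SAMtools 1.13), turned into fragment coverage (bedtools 2.30), pooled over replicates and called with SEACR 1.3 in stringent mode, keeping the top 1% of regions without a control. The deposited signal values, coverage summed over each peak, are whole numbers not scaled for depth, and were therefore ranked within a list only. Peaks are unbroken stretches of coverage, so their width grows with depth. Stem cell H3K4me3 and H3K27me3 lists named without a medium were taken as mESC-ser, since mESC-2i has its own.

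Peaks on chromosomes 1 to 19 and X were intersected with GENCODE M21 genes (Python 3.11.15, numpy 2.4.6), after the interval functions were tested on simulated data. Figures were drawn with matplotlib 3.10.9. The members, gene lists and motifs were chosen with earlier results of these data known. All 10 members are named. Signalling genes are named where H3K18la differed between the media or H3K27me3 was called in both (those with H3K27me3 in 1 medium were named after their values were seen), like genes up to 5 in alphabetical order (none for Klf2, which had many), and distal peaks by largest total signal, 1 of which is not reported here. Alternatives were a promoter of 1000 bp, TSSs of protein-coding transcripts, an overlap of 500 bp, the top 5000 peaks, other region flanks, the promoter peak of largest signal and lists reduced to equal bases.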

Additional observations from a re-analysis of the deposited data

How the results depend on the processing

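Of 72 recomputed summaries, 57 were within 1.5 times the reported value. With the 5000 peaks of largest total signal per list, H3K18la was called in 19 of 20 stem cell combinations (13.1% over all genes) and 4 of 60 differentiated ones (6.79% over all genes), and H3K27me3 at 3 of 10 genes in mESC-ser (15.3%). Distal peaks then numbered 9 in mESC-ser and 10 in mESC-2i, of which 5 and 9 overlapped no differentiated H3K18la, and regions with 50 kb on either side held 41 in mESC-ser. With the larger list reduced to the bases of the other, the median H3K18la difference was 0.824 points with 5 genes higher in mESC-2i, and that of H3K4me3 was -0.686 with 2. Differences over all genes were not computed for this setting. The median H3K4me3 difference was -0.0427 points with flanks of 10 kb and 3.37 with 50 kb, and that of H3K27me3 was -0.327 with 50 kb, with 2 genes higher in mESC-2i.

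Single H3K18la differences changed sign at Pou5f1 (1.06 points with 10 kb, 1.25 with 50 kb) and Nr5a2 (-1.10 with 10 kb), and with equal bases at Klf2 (-6.21), Klf4 (-2.83), Klf5 (-9.84) and Nr5a2 (-0.956). The H3K27me3 difference of Nr5a2 was 3.61 with 50 kb. Apart from fewer peaks or other regions by construction, the cause was not tested. Replicates were pooled before peak calling, so none could be left out. No paired analysis was possible because each cell type and mark has 1 pooled list and no test was made.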

Other observations

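At Klf4, peaks with the same borders to the base were found in 4 lists, H3K18la and H3K4me3 in both media. They were 2847 bp (chr4:55529154-55532000) and 1283 bp wide (chr4:55532904-55534186), on either side of a gap that holds the first TSS, while the H3K27ac peak of mESC-ser ran across the gap with a width of 3652 bp. No other member had promoter peaks with both borders shared between lists, but single borders were shared to the base at other members, among them Klf2, Prdm14, Tbx3 and Zfp42.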
